A study of Mus musculus with 36 samples.

Results

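The 6 genes described here are Arntl, Clock, Npas2, Nr1d1, Nr1d2 and Rora, which form the activating arm of the circadian clock and the nuclear receptor loop attached to it. They were chosen by gene symbol, and each of the 6 had 1 row in each of the deposited expression tables, out of 23352 gene rows in all. The proteins BMAL1 (from Arntl) and CLOCK, or BMAL1 and the CLOCK relative NPAS2, bind as pairs to E-box sequences and switch on the genes of their own repressors, the period and cryptochrome families. The same pairs switch on Nr1d1 and Nr1d2, which encode the heme-binding receptors REV-ERB alpha and REV-ERB beta. REV-ERB proteins repress Arntl from sites that the activating receptor RORA can also occupy, so that Arntl and the REV-ERB genes peak at different times of day.

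RNA sequencing was done on heart apex of mice labelled KLF15 KO (cK15) and of control mice labelled α-MHC cre, with 18 libraries per genotype and 36 in all. Klf15 encodes a zinc-finger transcription factor of the Kruppel-like family. All animals were C57BL/6 males of 11 to 12 weeks under 12 h of light and 12 h of dark, and hearts were taken every 4 h, at labels 12 am, 4 am and 8 am and at 12 pm, 4 pm and 8 pm, with 3 libraries per group. The α-MHC promoter is active in cardiomyocytes and so drives Cre in them; the sources used here do not say whether the cK15 mice also carried that transgene. The label 12 am was taken as midnight and 12 pm as noon. The sources used here do not give the hour of lights-on. The labels do not state that each library is a different animal, and each p-value therefore rests on library-to-library spread that can include technical error. In whole tissue, fewer cells of a type and less RNA per cell cannot be told apart.

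Levels are in FPKM (fragments adjusted for the length of the gene and for sequencing total), and a library's values added up to 534039 to 691583. Klf15 was listed at 0 in 13 of 18 cK15 libraries and reached at most 0.326 FPKM there, against 0.406 to 2.91 FPKM in control libraries. It was lower in cK15 by the averaged comparison (log2 difference -1.16, SE 0.10, limma adjusted p = 2.155e-10). In 12 libraries, 1 in each of the 12 groups, the top 10 genes held 16.1 to 17.7% of all FPKM, compared with 21.7 to 25.03% in the other 24. The 12 libraries stand apart in Clock, Nr1d1, Nr1d2 and Rora as well. They also held the lowest Arntl value in 8 of 12 groups, at a median of 0.80 times the mean of the other 2. Rhythm values without these libraries are given beside the results. Absolute depth is unknown; steps in the low values put the relative depth of the 24 libraries at 0.776 to 1.26 of their median. Of the 7 fibroblast markers all were detected, with summed levels of 588 to 754 FPKM in cK15 and 681 to 878 FPKM in control; the 7 macrophage markers summed to 142 to 226 FPKM in cK15 and 161 to 249 FPKM in control. The part of these cell types in the results below was not tested. The 8 cardiomyocyte markers summed to between 58358 and 119464 FPKM in cK15 and between 59619 and 107968 FPKM in control, and the 4 adipocyte markers to at most 0.404 FPKM in cK15 and 0.399 FPKM in control.

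Clock averaged 16.3 ± 3.73 FPKM in cK15 and 16.1 ± 4.19 FPKM in control (SD, n = 18 each). Rora stood at the same height, at 16.2 ± 2.96 FPKM in cK15 and 16.3 ± 3.15 FPKM in control. Nr1d2 followed at 14.0 ± 7.30 FPKM in cK15 and 14.0 ± 6.96 FPKM in control. These levels are per length, so the first 3 genes were similarly abundant when averaged over the day. At single times they could differ. At 8 am in control Nr1d2 had a mean of 5.78 FPKM, against 20.5 FPKM for Clock and 15.7 FPKM for Rora. Arntl averaged 11.9 ± 10.9 FPKM in cK15 and 11.6 ± 9.47 FPKM in control. Nr1d1 averaged 5.77 ± 2.69 FPKM in cK15 and 6.33 ± 3.04 FPKM in control. Npas2 was the least abundant, at 1.83 ± 1.04 FPKM in cK15 and 1.61 ± 1.02 FPKM in control. The ranges over libraries of every pair of neighbours in this order overlapped in both genotypes. Those ranges span the 6 times and so include the daily swing. Within each library Nr1d1 was nonetheless above Npas2. Averaged over the day, none of the 6 genes was called different between genotypes at a limma adjusted p under 0.05, and none had an unadjusted p under 0.05. Of all 10600 genes tested, 11.2% were called in that comparison. The log2 differences of the 6, cK15 minus control, ran from -0.10 for Arntl (SE 0.10, limma adjusted p = 0.638) to 0.13 for Npas2 (SE 0.07, limma adjusted p = 0.236).

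**Figure D1:**
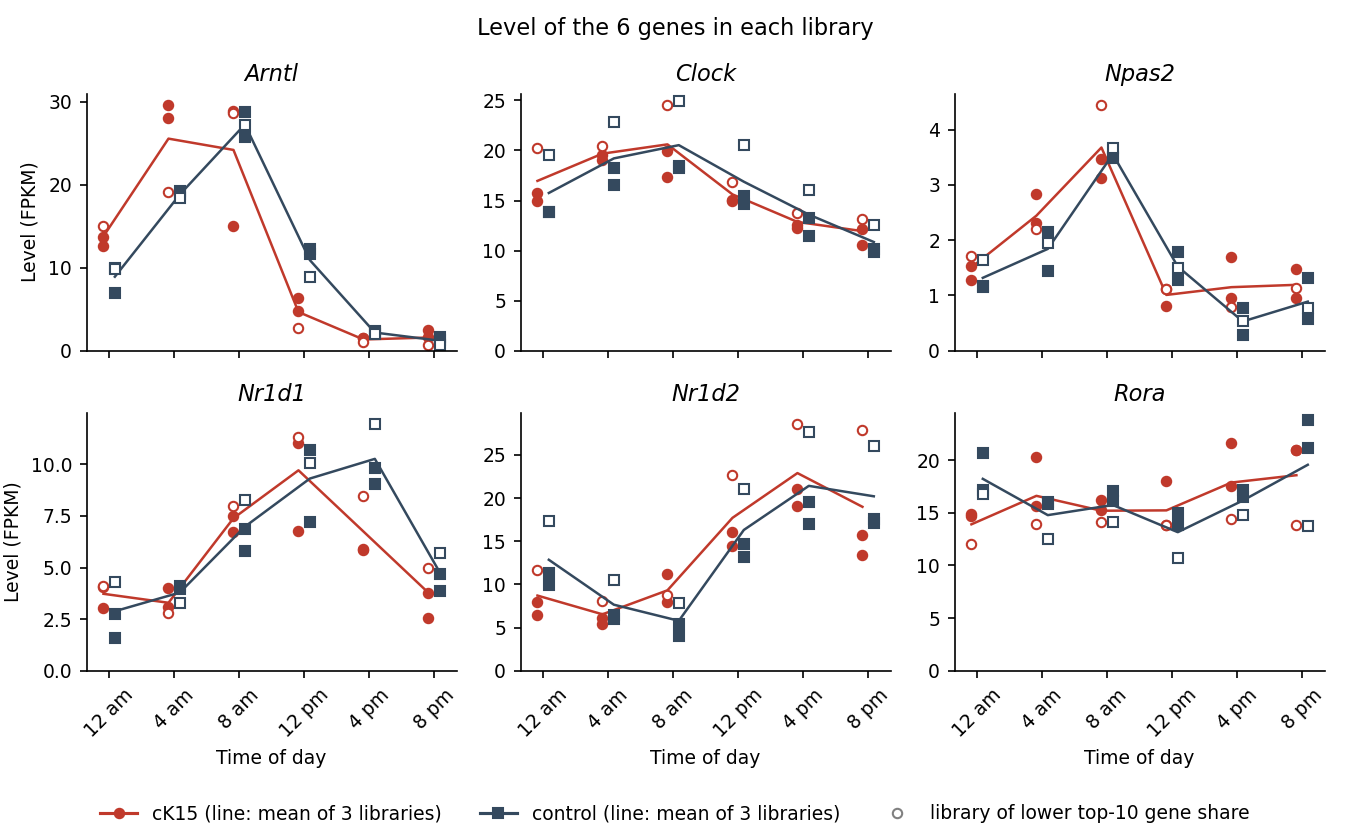
FPKM (vertical axes) of each gene in every library by time of day, cK15 as red circles and control as dark squares, with lines through the means of 3 libraries. Open symbols are the 12 libraries whose 10 most abundant genes took under 20% of the FPKM. Arntl swings from about 1 to nearly 30 FPKM in both genotypes, Nr1d1 and Nr1d2 crest 7 to 11 h after it, and Rora stays within 10.7 to 23.8 FPKM.

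Arntl encodes BMAL1, the partner that CLOCK and NPAS2 share, and is the clock gene without which the mouse loses behavioural rhythms. It lies on mouse chromosome 7 (GRCm38, 113207465 to 113314126, plus strand). At 12 am it had 15.0, 13.7 and 12.7 FPKM in cK15 hearts, against 9.83, 9.95 and 6.98 FPKM in control hearts. At 4 am it had 19.1, 29.6 and 28.0 FPKM in cK15, against 18.5, 19.2 and 18.8 FPKM in control. At 8 am it had 28.7, 28.9 and 15.0 FPKM in cK15, against 27.2, 28.8 and 25.8 FPKM in control. So every cK15 library was above every control library at 12 am, the ranges overlapped at 4 am with 2 cK15 libraries well above, and 1 low cK15 library at 8 am widened that group. At 12 pm Arntl had 2.80, 6.40 and 4.80 FPKM in cK15, against 8.85, 11.7 and 12.2 FPKM in control. At 4 pm it had 1.01, 1.52 and 1.55 FPKM in cK15, against 1.99, 2.33 and 2.25 FPKM in control. At 8 pm it had 1.63, 2.45 and 0.692 FPKM in cK15, against 1.68, 1.29 and 0.649 FPKM in control. All cK15 libraries lay below all control libraries at 12 pm and 4 pm, and the genotypes overlapped again at 8 pm. Such a separation of 3 libraries from 3, here and below, is a description and not a test. How often it occurs over all genes was not counted.

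Arntl at 12 pm was the 1 call among the 36 single-time differences of the 6 genes, and it fell in cK15 to 0.427 of the control mean in FPKM (log2 difference -1.11, SE 0.25, limma adjusted p = 0.0153). At 12 pm 0.755% of the 10600 genes were called. At the other times none of the 6 genes was called by limma, where 1.22% of all genes were called at 12 am, 1.13% at 4 am, 1.07% at 8 am, 1.31% at 4 pm and 1.13% at 8 pm. Over the 36 differences 5 (13.9%) had an unadjusted p under 0.05, counting the called one, against 7.42% of the single-time differences of all genes. The other 4 were Arntl at 12 am (0.59, SE 0.25), Npas2 at 4 pm (0.48, SE 0.17), Nr1d1 at 4 pm (-0.55, SE 0.22) and Nr1d2 at 8 am (0.63, SE 0.28), as log2 differences. The 12 pm call for Arntl rests on few libraries and was lost with a pseudocount of 0.1 (limma adjusted p = 0.0715). At 12 pm the library that stands apart had the lowest Arntl value in both genotypes. In the 24 libraries alone the difference was -0.98 (limma adjusted p = 0.0485). The call was lost without cK15 replicate 1 at 12 pm (-0.85, limma adjusted p = 0.223), without control replicate 3 (-1.06, limma adjusted p = 0.102) and without control replicate 4 (-1.03, limma adjusted p = 0.128). With the replicate number as a block within each time, added after seeing the data, the 12 pm difference of Arntl was -1.07 (limma adjusted p = 0.00125). Npas2 at 4 pm was then called too (0.52, limma adjusted p = 0.022).

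**Figure D2:**
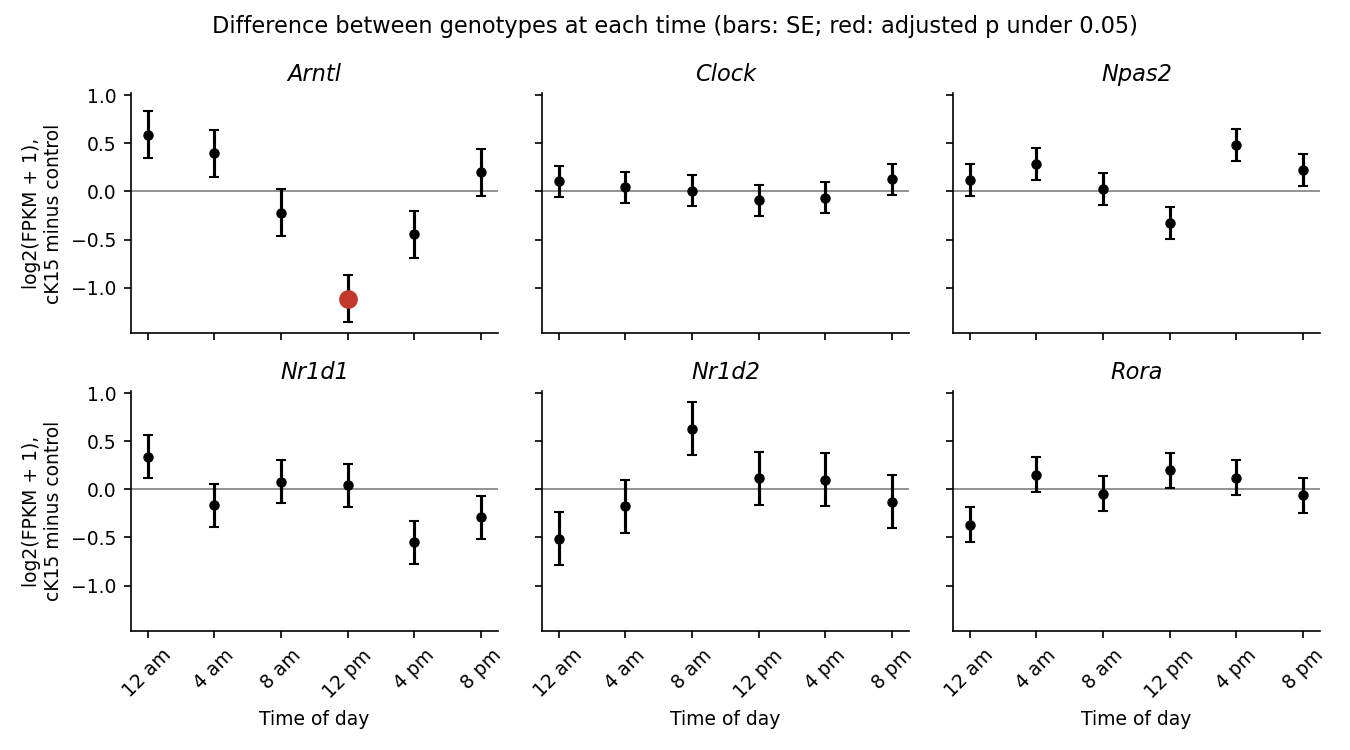
Difference in log2(FPKM + 1), cK15 minus control (vertical axes), at each time of day for the 6 genes, with bars of 1 SE, n = 3 libraries per group; the red point has an adjusted p under 0.05. Arntl goes from 0.59 at 12 am to -1.11 at 12 pm, the only red point, while Clock stays within 0.13 of 0.

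Arntl had the strongest rhythm of the 6. Its 24 h amplitude, from the mean of the fitted curve to its peak on the log2(FPKM + 1) scale, was 2.02 in cK15 (SE 0.13, limma adjusted p = 2.126e-08). In control the amplitude was 1.85 (SE 0.10, limma adjusted p = 3.727e-09). Among 10600 genes Arntl ranked 1 by amplitude in cK15 and 2 in control. The mean level at the highest time was 18.8 times that at the lowest in cK15 and 22.6 times in control. The fitted peak came 5.02 h after midnight in cK15 (SE 0.25 h) and 6.56 h after midnight in control (SE 0.21 h). That order is visible in the libraries, where cK15 led at 12 am and control was still high at 12 pm. The shift of the peak was -1.53 h (SE 0.34 h), with an unadjusted limma p of 0.000273 for the rhythm difference and an adjusted p of 0.361. Without the libraries that stand apart the amplitude was 1.92 in cK15 and 1.79 in control, and the shift was -1.64 h (SE 0.31 h).

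The RefSeq promoter windows (GRCm38.p6, 250 bases before to 50 after a start) matched all 6 genes with 9 windows, and 3 are printed because Arntl, Nr1d2 and Nr1d1 form the receptor loop. Capitals mark every match on either strand to the core of the ROR and REV-ERB element (TAGGTCA), the nuclear receptor single receptor site within it (AGGTCA) or the CACCC box bound by Kruppel-like factors (CCACCC).
Arntl, chr7:113207261-113207560, plus strand: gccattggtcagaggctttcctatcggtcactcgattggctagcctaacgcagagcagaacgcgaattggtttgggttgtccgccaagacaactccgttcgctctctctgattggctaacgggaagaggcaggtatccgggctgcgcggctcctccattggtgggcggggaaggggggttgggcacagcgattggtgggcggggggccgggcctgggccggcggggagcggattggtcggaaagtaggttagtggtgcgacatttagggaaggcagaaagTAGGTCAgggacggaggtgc
Nr1d2, chr14:18239057-18239356, minus strand: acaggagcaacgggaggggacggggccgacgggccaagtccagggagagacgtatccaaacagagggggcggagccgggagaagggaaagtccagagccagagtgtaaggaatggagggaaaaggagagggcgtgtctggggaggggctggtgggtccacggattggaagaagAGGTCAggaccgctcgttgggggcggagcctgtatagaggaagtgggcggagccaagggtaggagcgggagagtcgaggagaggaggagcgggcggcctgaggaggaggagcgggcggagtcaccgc
Nr1d1, chr11:98775328-98775627, minus strand: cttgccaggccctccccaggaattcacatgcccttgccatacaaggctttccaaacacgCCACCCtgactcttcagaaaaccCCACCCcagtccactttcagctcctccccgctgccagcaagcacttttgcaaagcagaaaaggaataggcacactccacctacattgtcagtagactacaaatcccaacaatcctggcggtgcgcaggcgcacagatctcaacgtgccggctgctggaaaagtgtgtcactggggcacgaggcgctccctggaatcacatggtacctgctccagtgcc
The printed Arntl window holds the 7-letter core with its first base at position 31 after the start, and 2.61% of the 32851 windows in the table hold that core. The Nr1d2 window holds the single receptor site at position -77, and 16.3% of all windows hold that site. The Nr1d1 window holds CACCC boxes at positions -191 and -168, a motif in 31.5% of all windows. The E-box CACGTG (in 7.15% of all windows) and the D-box letters TTATGTAA (0.938%) and TTATGCAA (0.743%) were in none of the 9 windows of the 6 genes. Of the windows not printed, 1 Clock window holds the single receptor site, and another Clock window and the Npas2 window hold CACCC boxes. The other Arntl window, the remaining Clock window and the Rora window hold none of these motifs. That Arntl window (113207215 to 113207514) overlaps the printed one and ends before the core, so the core's absence there reflects where the window stops. Only exact letters were searched, and variants of them would be missed. A match is a stretch of letters, and binding was not measured.

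Clock encodes the DNA-binding partner of BMAL1 and lies on chromosome 5 (76209868 to 76304792, minus strand). It ran with Arntl at a far smaller swing. Over the 18 libraries it had 10.5, 15.4 and 24.6 FPKM as lowest, median and highest in cK15, against 9.86, 15.7 and 24.9 FPKM in control, and the genotypes overlapped at every time. Its group mean was highest at 8 am, with 20.6 ± 3.66 FPKM in cK15 and 20.5 ± 3.82 FPKM in control. It was lowest at 8 pm, with 11.9 ± 1.31 FPKM in cK15 and 10.9 ± 1.47 FPKM in control (SD, n = 3). The amplitude was 0.38 in cK15 (SE 0.05, limma adjusted p = 0.00113) and 0.39 in control (SE 0.07, limma adjusted p = 0.00702). The peak came 5.91 h after midnight in cK15 (SE 0.54 h) and 6.94 h in control (SE 0.68 h). The library that stands apart had the highest Clock value in all 12 groups, at a median of 1.30 times the mean of the other 2. In the 24 libraries without them the amplitude was 0.37 in cK15 and 0.38 in control, so the daily swing was of the same size.

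Npas2 encodes the CLOCK relative that can replace it as a partner of BMAL1, and it lies on chromosome 1 (39193731 to 39363236, plus strand). At 8 am it peaked with 4.44, 3.12 and 3.46 FPKM in cK15, against 3.67, 3.50 and 3.49 FPKM in control. At 12 pm it had 1.11, 0.801 and 1.12 FPKM in cK15, against 1.502, 1.28 and 1.79 FPKM in control. At 4 pm it had 0.799, 0.950 and 1.70 FPKM in cK15, against 0.530, 0.290 and 0.769 FPKM in control. The genotypes overlapped at 8 am, all cK15 libraries were lower at 12 pm, and all cK15 libraries were higher at 4 pm, where the control had its trough. Neither of those differences was called by limma (12 pm log2 difference -0.33, adjusted p = 0.897; 4 pm 0.48, adjusted p = 0.244). The amplitude was 0.52 in cK15 (SE 0.10, limma adjusted p = 0.0257) and 0.64 in control (SE 0.09, limma adjusted p = 0.000744). The peak came 5.70 h after midnight in cK15 (SE 0.74 h) and 6.64 h in control (SE 0.55 h). The rhythm call of Npas2 in cK15 was lost under 16 of 60 other settings. In the 24 libraries the cK15 amplitude was 0.46 (limma adjusted p = 0.233).

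Nr1d1 encodes REV-ERB alpha, the main repressor of Arntl, and lies on chromosome 11 (98767932 to 98775333, minus strand). At 8 am it had 7.98, 6.70 and 7.49 FPKM in cK15, against 8.25, 6.87 and 5.82 FPKM in control. At 12 pm it had 11.3, 6.77 and 11.0 FPKM in cK15, against 10.05, 7.18 and 10.7 FPKM in control. At 4 pm it had 8.47, 5.92 and 5.85 FPKM in cK15, against 11.9, 9.81 and 9.04 FPKM in control. The genotypes overlapped at 8 am and 12 pm, and at 4 pm every cK15 library was below every control library. At night Nr1d1 was low in both, with group means at 12 am of 3.73 ± 0.60 FPKM in cK15 and 2.88 ± 1.38 FPKM in control. At 4 am the means were 3.29 ± 0.65 FPKM in cK15 and 3.79 ± 0.44 FPKM in control. The 8 pm means were 3.77 ± 1.205 FPKM in cK15 and 4.76 ± 0.93 FPKM in control (SD, n = 3). The highest group mean stood at 12 pm in cK15, with 9.71 ± 2.55 FPKM, and at 4 pm in control, with 10.3 ± 1.505 FPKM. The amplitude was 0.67 in cK15 (SE 0.09, limma adjusted p = 0.001) and 0.80 in control (SE 0.09, limma adjusted p = 4.088e-05). The fitted peak came 12.0 h after midnight in cK15 (SE 0.53 h) and 13.1 h in control (SE 0.43 h). The library that stands apart had the highest Nr1d1 value in 9 of 12 groups, at a median of 1.27 times the mean of the other 2. The amplitude in the 24 libraries was 0.64 in cK15 and 0.82 in control, and the shift was -1.40 h (SE 0.77 h). Nr1d1 shares 263 of its 3077 exon bases with the antisense gene Thra, which encodes thyroid hormone receptor alpha and averaged 33.1 FPKM in cK15 and 29.7 FPKM in control. The sources used here do not say whether the counting used strand, so Thra reads in the Nr1d1 values cannot be told apart from its own.

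Nr1d2 encodes REV-ERB beta, a close relative that represses alongside REV-ERB alpha, and lies on chromosome 14 (18204054 to 18239127, minus strand). At 12 am it had 11.7, 6.46 and 7.94 FPKM in cK15, against 17.3, 11.3 and 9.94 FPKM in control. At 4 am it had 8.05, 6.10 and 5.46 FPKM in cK15, against 10.5, 6.49 and 5.98 FPKM in control. At 8 am it had 8.73, 7.99 and 11.2 FPKM in cK15, against 7.84, 5.43 and 4.08 FPKM in control. Its trough thus fell at 4 am in cK15 and at 8 am in control, where every cK15 library was above every control library. At 12 pm it had 22.7, 14.4 and 16.04 FPKM in cK15, against 21.1, 14.7 and 13.1 FPKM in control. At 4 pm it had 28.6, 19.1 and 21.1 FPKM in cK15, against 27.7, 19.5 and 17.0 FPKM in control. At 8 pm it had 13.4, 15.7 and 27.9 FPKM in cK15, against 17.1, 17.6 and 26.0 FPKM in control. From 12 pm on the genotypes overlapped, and the highest library of each group at these times was 1 of the 12 that stand apart.

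The amplitude of Nr1d2 was 0.86 in cK15 (SE 0.10, limma adjusted p = 8.53e-05) and 0.88 in control (SE 0.11, limma adjusted p = 0.000266). The peak came 15.9 h after midnight in cK15 (SE 0.43 h) and 17.7 h in control (SE 0.50 h). The shift was -1.80 h (SE 0.69 h), with an unadjusted limma p of 0.0473 for the rhythm difference and an adjusted p of 1. In the 24 libraries the shift was -2.25 h (SE 0.50 h), and in the 12 it was -1.07 h (SE 0.62 h). The library that stands apart had the highest Nr1d2 value in 11 of 12 groups, at a median of 1.52 times the mean of the other 2. With the spread between library sets taken out by a term, Nr1d2 was called at 8 am (0.63, limma adjusted p = 0.008) and at 12 am (-0.51, limma adjusted p = 0.042). In the 24 libraries alone it was called at 8 am (0.88, limma adjusted p = 0.00714).

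Rora encodes the activating receptor that competes with the REV-ERB proteins, and lies on chromosome 9 (68653786 to 69388246, plus strand). It was the one gene of the 6 without a called rhythm in either genotype. Over the 18 libraries it had 12.1, 15.1 and 21.7 FPKM as lowest, median and highest in cK15, against 10.7, 16.04 and 23.8 FPKM in control. At 12 am it had 12.1, 14.9 and 14.7 FPKM in cK15, against 16.8, 20.7 and 17.2 FPKM in control, with all cK15 libraries below all control libraries (log2 difference -0.37, limma adjusted p = 0.702). At the other 5 times the genotypes overlapped. The amplitude was 0.10 in cK15 (SE 0.08, limma adjusted p = 0.981) and 0.21 in control (SE 0.07, limma adjusted p = 0.267). The median amplitude over all genes was 0.08 in cK15 and 0.09 in control. The library that stands apart had the lowest Rora value in all 12 groups, at a median of 0.80 times the mean of the other 2. The amplitude in the 24 libraries was 0.15 in cK15 and 0.23 in control, uncalled in both. With a term for the library set, the control rhythm of Rora was called (limma adjusted p = 0.0336).

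Of the 6 genes 5 were rhythmic in cK15, where 1.08% of all tested genes were called, and the same 5 were rhythmic in control, where 2.80% were called. A test of any difference among the 6 times, with no curve assumed, called 5 of the 6 in cK15 by limma (0.396% of all genes) and 4 of the 6 in control (1.35% of all genes), where Clock (limma adjusted p = 0.109) and Rora were not called. With the replicate number as a block that test called 5 of the 6 in control. By amplitude among the 10600 genes, Nr1d2 ranked 15 in cK15 and 17 in control, and Nr1d1 ranked 31 in cK15 and 24 in control. Npas2 ranked 87 in cK15 and 49 in control, and Clock 172 in cK15 and 190 in control. These ranks use log2(FPKM + 1), which shrinks the amplitude of a low gene such as Npas2. With a pseudocount of 0.1 the Npas2 amplitude in control was 1.06, against 0.95 for Nr1d2 and 0.94 for Nr1d1. In cK15 it was then 0.77, against 0.93 for Nr1d2 and 0.78 for Nr1d1. On the log2(FPKM + 1) scale the amplitudes of the 5 differed between genotypes by at most 0.17, for Arntl (SE 0.17).

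All 5 rhythmic genes peaked earlier in cK15. The shift, cK15 minus control, was -1.53 h for Arntl, -1.03 h for Clock (SE 0.88 h), -0.94 h for Npas2 (SE 0.93 h), -1.06 h for Nr1d1 (SE 0.70 h) and -1.80 h for Nr1d2. By the limma test of the rhythm difference, which takes amplitude and peak together, none of the 6 was called, and 2 had an unadjusted p under 0.05. In that test 0% of the 10600 genes were called, while 291 had an unadjusted p under 0.05. The limma interaction of genotype and time over all 36 libraries called none of the 6, and 0.00943% of all genes. Arntl had an unadjusted limma p of 0.000344 and Npas2 of 0.0405, with an adjusted p of 1 for both. Of all 10600 genes, 205 had an unadjusted p under 0.05 for this interaction. With the replicate number as a block within each time, the Arntl interaction was called (limma adjusted p = 0.036). That block was added after seeing the data, and all its pairs lay within a library set. The shifts of Arntl, Clock, Nr1d1 and Nr1d2 were negative under each of 60 other settings. Of these settings, 42 left out only a library or a replicate series. Changing the filter or the variance moderation, or adding the replicate block or a library-set term, left the fitted peaks unchanged. A constant sign over these settings is therefore a weak check. The Npas2 shift ran from -1.94 to 0.59 h over those settings, and was positive without the 12 pm libraries.

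**Figure D3:**
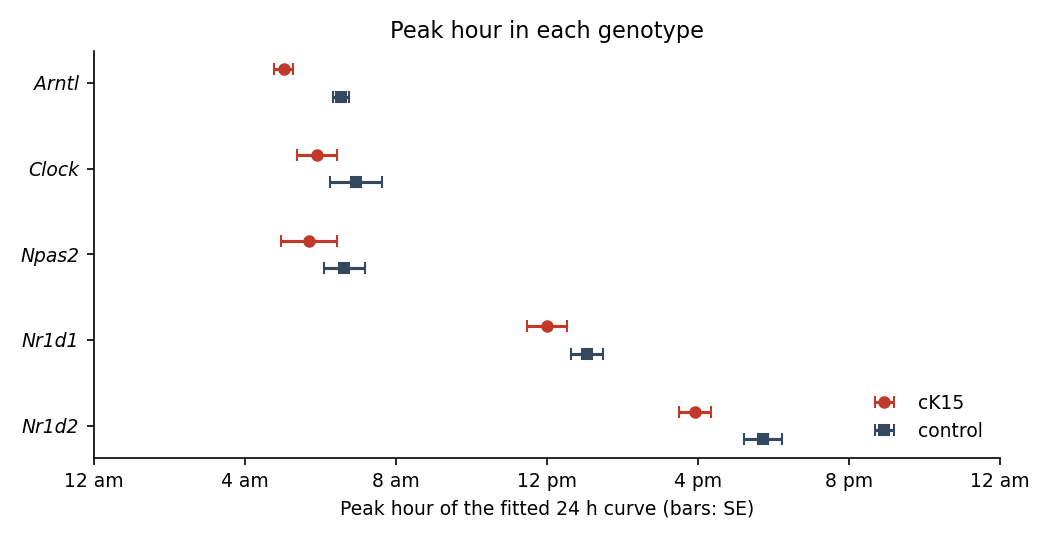
Peak hour of the fitted 24 h curve (horizontal axis, time of day) for the 5 rhythmic genes, cK15 as red circles above control as dark squares, with bars of 1 SE. Arntl, Clock and Npas2 peak between 5.02 and 6.94 h after midnight, Nr1d1 at 12.0 h in cK15 and 13.1 h in control, and Nr1d2 at 15.9 h in cK15 and 17.7 h in control; each gene is earlier in cK15.

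Other genes had the same direction. Outside the 6, 76 genes were rhythmic in both genotypes, and their median shift was -1.60 h (quartiles -2.04 and -1.06 h), with 73 of the 76 earlier in cK15. In the 24 libraries 72 of the 76 were earlier (median -1.66 h), and in the 12 libraries that stand apart 64 were (median -1.16 h). All these genes come from the same 36 libraries and are not independent of each other or of the 6. The order within the loop was kept in both genotypes. Nr1d1 peaked 6.98 h after Arntl in cK15 and 6.51 h after it in control, and Nr1d2 peaked a further 3.92 h later in cK15 and 4.66 h later in control. From Arntl to Nr1d2 the interval was 10.9 h in cK15 and 11.2 h in control.

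**Figure D4:**
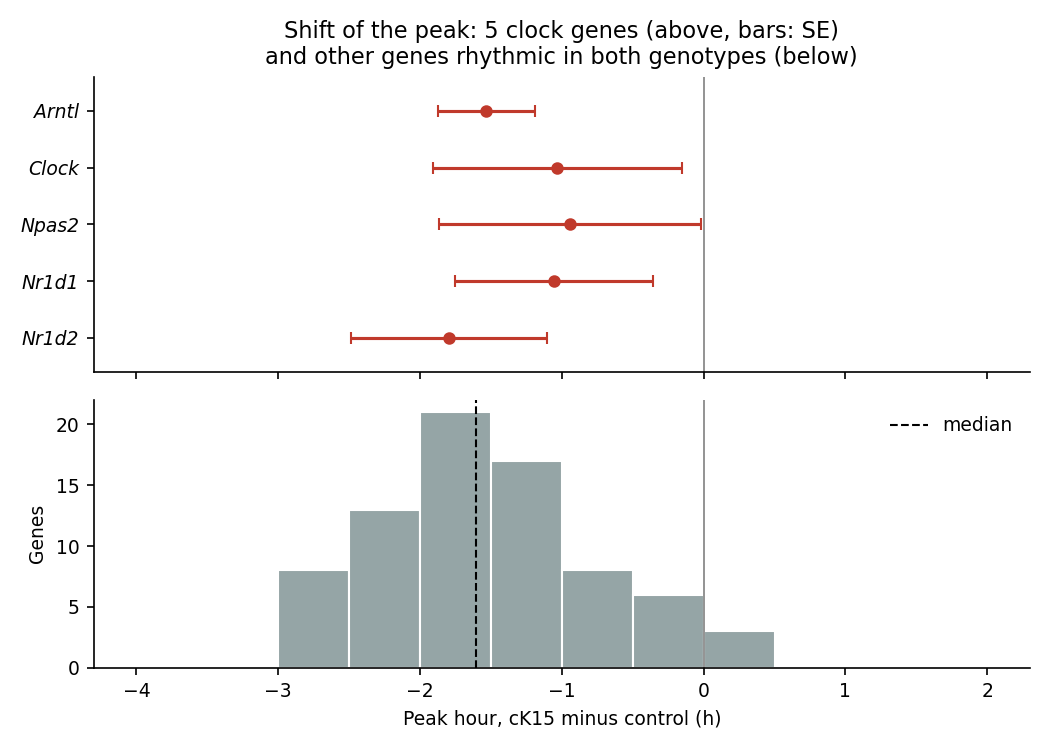
Shift of the peak hour, cK15 minus control (horizontal axis, h), for the 5 rhythmic clock genes with bars of 1 SE (above), and the number of genes per bin of equal width for the 76 other genes rhythmic in both genotypes (below). All 5 points and 73 of the 76 genes lie left of 0, and the dashed median stands at -1.60 h.

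The proportion of the REV-ERB genes varied over the day, with Nr1d1 cresting hours before Nr1d2. The FPKM ratio of Nr1d2 to Nr1d1 was lowest at 8 am, at 1.26 ± 0.21 in cK15 and 0.814 ± 0.13 in control (SD, n = 3), without overlap. At 4 pm it was 3.40 ± 0.19 in cK15 and 2.07 ± 0.23 in control, again without overlap. At 4 am the ratio was 2.08 ± 0.78 in cK15 and 2.09 ± 0.95 in control. At 12 pm it was 1.86 ± 0.36 in cK15 and 1.79 ± 0.49 in control. The genotypes overlapped at 4 am, 12 pm and 8 pm. At 8 pm it was 5.09 ± 1.36 in cK15 and 4.24 ± 0.42 in control, and at 12 am it was 2.32 ± 0.48 in cK15 and 4.94 ± 1.97 in control, at 12 am without overlap. So the ratio was highest at 8 pm in cK15 and at 12 am in control. Over all libraries it averaged 2.67 ± 1.42 in cK15 and 2.66 ± 1.68 in control (SD, n = 18). Npas2 was low beside Clock, at 0.108 ± 0.043 of the Clock level in cK15 and 0.095 ± 0.047 in control. That ratio was highest at 8 am, at 0.179 ± 0.022 in cK15 and 0.176 ± 0.025 in control, and at 4 pm it was 0.091 ± 0.042 in cK15 and 0.039 ± 0.017 in control. These ratios are descriptions and were not tested.

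**Figure D5:**
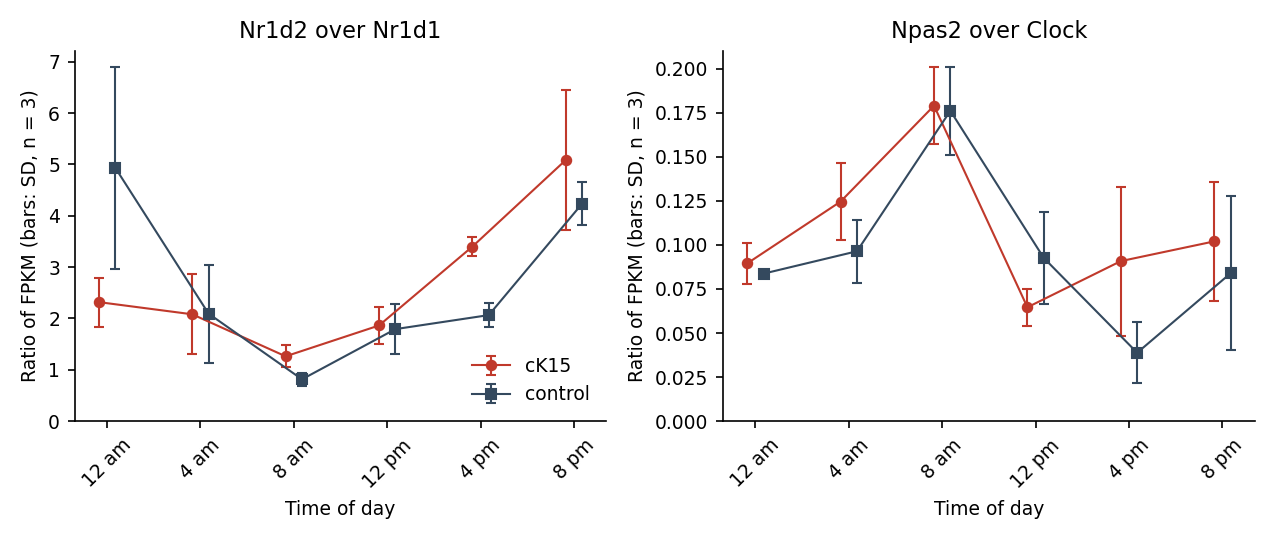
Ratio of FPKM by time of day, Nr1d2 over Nr1d1 (left) and Npas2 over Clock (right), as means with SD bars (n = 3), cK15 as red circles and control as dark squares. The Nr1d2 to Nr1d1 ratio runs between 1.26 and 5.09 in cK15 and between 0.814 and 4.94 in control.

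The repressors and output factors that the activators drive cycled with them. Of 12 listed genes 11 were found under the listed symbol, and 9 of them had the mean of at least 1 FPKM needed for testing. Matching was by the listed symbol only, so the gene not found may be filed under another symbol. None of the 9 was called different on average by limma. An unadjusted p under 0.05 was found for 2 of them, and for 2464 of all 10600 genes. The median log2 difference was 0.12, against -0.01 over all genes. Of the 9, 8 were rhythmic in cK15 (1.08% of all genes) and 9 in control (2.80% of all genes). The exception in cK15 was the cryptochrome gene Cry2, named after its values were seen. No rhythm difference in the list was called by limma, and 5 had an unadjusted p under 0.05, against 291 of all 10600 genes. The 4 of largest amplitude in control were Dbp, a transcription factor of clock output, and the period genes Per2, Per3 and Per1. Dbp had an amplitude of 1.59 in cK15 and 1.63 in control, with peaks 15.9 h after midnight in cK15 and 16.7 h in control. Per2 had an amplitude of 1.13 in cK15 and 1.12 in control, with peaks at 18.8 h in cK15 and 20.5 h in control. Per3 peaked at 17.3 h in cK15 and 19.2 h in control, and Per1 at 16.3 h in cK15 and 19.0 h in control. Each of these genes peaked earlier in cK15, as the activators and receptors did.

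Among close relatives of the 6, Arntl2, a paralogue of Arntl, averaged 2.59 ± 0.74 FPKM in cK15 and 2.71 ± 0.70 FPKM in control (SD, n = 18 each). It had no called rhythm, with an amplitude of 0.09 in cK15 (limma adjusted p = 0.999) and 0.14 in control (limma adjusted p = 0.763).

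Of 32 tested genes in 4 lists of partners of these proteins, 4 (12.5%) were called in the averaged comparison, near the 11.2% of all genes. The 6 genes of the REV-ERB corepressor complex had no called difference on average (none at an unadjusted limma p under 0.05) and no called rhythm. Of 9 coactivator genes 2 rose in cK15. Kat2b, which encodes a histone acetyltransferase that CLOCK and NPAS2 recruit, averaged 67.3 ± 4.66 FPKM in cK15 and 59.8 ± 4.20 FPKM in control (log2 difference 0.17, limma adjusted p = 0.000402). Ppargc1a, which encodes PGC-1 alpha, a coactivator of ROR receptors at Arntl, averaged 21.0 ± 2.38 FPKM in cK15 and 19.1 ± 3.17 FPKM in control (0.14, limma adjusted p = 0.043). Ppargc1a was called rhythmic in control (amplitude 0.28, limma adjusted p = 0.00207) and not in cK15 (amplitude 0.06, limma adjusted p = 0.999), but the difference in rhythm was not called. Heme is the ligand of the REV-ERB proteins, and of 10 genes of its synthesis and breakdown 1 fell in cK15, a share near that of all genes. That was Alad, an enzyme of heme synthesis, with 63.7 ± 4.13 FPKM in cK15 and 81.7 ± 7.38 FPKM in control (log2 difference -0.35, limma adjusted p = 1.313e-08). Alas1, the rate-limiting enzyme of heme synthesis, was rhythmic in control (amplitude 0.28, limma adjusted p = 0.0157) and not called in cK15 (0.16, limma adjusted p = 0.325), but the difference in rhythm was not called. Of 7 tested kinases and ubiquitin ligases that act on clock proteins 1 rose in cK15, the ligase subunit gene Fbxw7, with 28.9 ± 2.64 FPKM in cK15 and 24.3 ± 2.76 FPKM in control (0.25, limma adjusted p = 0.000112).

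Over the 12 group means the genes whose pattern was most like that of Arntl were Clock (Pearson r = 0.97), Leo1 and Steap4 (0.97 each), and the most opposite were Art5 (-0.97) and Per3 (-0.95). For Clock they were Arntl, Leo1 (0.96) and Plekhg1 (0.96), with Mthfd1l (-0.98) and Nub1 (-0.96) most opposite. For Npas2 they were Adam19 (0.93), Lnx2 (0.92) and Sash1 (0.92), with Per3 and Slc25a16 (-0.90 each) most opposite. For Nr1d1 they were Sparc (0.92), Commd10 and Srsf5 (0.91 each), with Eif2c3 and D14Abb1e (-0.94 each) most opposite. For Nr1d2 they were Ppat, Sphk2 and Tcap (0.96 each), with Grip2 (-0.95) and Fam73b (-0.94) most opposite. For Rora they included Csnk1e and Srp68 (0.87 each), with Mrps18b (-0.95) and Ush1c (-0.86) most opposite. Among the 6 themselves Arntl and Nr1d2 ran opposite (-0.93), as did Clock and Nr1d2 (-0.87). Nr1d1 had a low same-time correlation with Arntl (-0.17) and with Nr1d2 (0.38). A lag between peaks lowers such a value, and Nr1d1 peaked 6.98 h after Arntl in cK15 and 6.51 h after it in control. A low value therefore does not show that Nr1d1 ran apart from the loop. These correlations share libraries and describe 12 points, and no test was made of them.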

How the data were processed

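The authors deposited FPKM in a table per genotype, with 1 column per library. The submitters' processing notes name GSNAP, HTSeq and mm10. The sources used here do not give tool versions, annotation or strand setting. Per the labels' protocols, ribosomal RNA was depleted and stranded total RNA libraries were read as 100 bp pairs on a HiSeq in pools of 3. FPKM divides by gene length and library total, so a few abundant genes can lower all other values; Ttn was listed at 0 in all 36 libraries, so an exact 0 is only called listed at 0. The depth of the libraries is unknown, which allows no counting intervals. Symbols turned into dates (27) and repeated symbols (2) were tested and are not named.

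The 6 genes and all lists were chosen with earlier results of these data known. The log2(FPKM + 1) values were fitted with limma 3.58.1 (R 4.3.3), with variance moderation by trend and robust to outlying genes, for genes with a mean of at least 1 FPKM (the 6 genes and Klf15 kept), and Benjamini-Hochberg adjustment over 10600 genes. This scale understates changes of low genes. Genotypes were compared over 12 group means; rhythm used a cosine and a sine of 24 h within a genotype, with standard errors of amplitude and peak by the delta method. The procedure was tested on simulated data with independent libraries. Those data held no library sets, so the test cannot show how the sets affect the calls. Named genes were the 6, Klf15, per gene the 3 most alike and 2 most opposite patterns, and per list up to 4 genes called and up to 4 of largest control amplitude.

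Same-numbered libraries of both genotypes at 1 time deviated together in 12 of 12 pairs (correlation 0.157 to 0.509), and this alone is the source of the pairing. All 12 pairs joined libraries of 1 library set (both among the 12 that stand apart, or both among the 24). Of pairs with other numbers, 14 of 18 within a set and 0 of 24 between sets were over 0.1. Other pseudocounts, filters, scalings, replicate blocks and omitted libraries or times were tried. Overlapping genes are from GENCODE M21 and promoters from RefSeq. A few genes that the naming rule selects are not reported here.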

Additional observations from a re-analysis of the deposited data

How the results depend on the processing

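The averaged genotype difference and the rhythm difference called none of the 6 genes under any setting run. The differences called at single times numbered 0 with a pseudocount of 0.1 (Arntl at 12 pm, limma adjusted p = 0.0715), 2 in the 24 libraries, 2 with the replicate block within time and 3 where the library set was a term. Leaving out a library or a replicate series gave 0 to 1. The interaction called 1 gene with the replicate block within time. Any difference among times in cK15 called 2 genes with no filter and 2 in the 24 libraries. In control that test called 5 genes with median ratio rescaling, quantile normalization or the replicate block, and 6 where the library set was a term. Without a library or replicate series it called 1 to 5 in cK15 and 1 to 4 in control, and the rhythm test called 3 to 5 in cK15. In the 12 libraries the rhythm test called 1 gene in cK15 and 2 in control, where there is 1 library per group, and it called 3 in control without 8 am. The Npas2 peak shift was 0.59 h without 12 pm. Averaged log2 differences of uncalled genes changed sign for Rora with median ratio rescaling (0.01794), quantile normalization (0.01781), the block within time (0.0041) and the 12 libraries (0.000698). They changed sign in the 12 libraries for Clock (-0.0909) and Nr1d2 (-0.0823). With a library or replicate series left out, they ran from -0.0447 to 0.129 for Clock, -0.159 to 0.0237 for Nr1d1, -0.0903 to 0.16 for Nr1d2 and -0.0511 to 0.0591 for Rora. The cause was not tested.

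The planned replicate block, over all times within a genotype, added 1 call among the 6 genes, for any difference among times in control, and left the counts of the other tests unchanged (Arntl at 12 pm, -1.11, limma adjusted p = 0.0184). Over all genes it called 348 averaged differences against 1192 without it. It called 202 rhythms in cK15 and 470 in control, against 114 in cK15 and 297 in control without it. The block within time called 2044 averaged differences and the term for the library set 2169, with 261 rhythms in cK15 and 730 in control. The 24 libraries called 76 rhythms in cK15, and the 12 called 576 averaged differences, 7 rhythms in cK15 and 46 in control. The setting with the 12 libraries alone, the block within time and the peak hours under every setting were added after seeing the data. The rhythm of Npas2 in cK15 lost its call under 16 of 60 settings, that of Clock in control under 5. Depth is unknown, and 3 libraries per group limit what a single time can show.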
